A study of Arabidopsis thaliana with 9 samples.

Results

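PYR1 and the PYL proteins are the intracellular receptors of abscisic acid, the plant hormone of drought, seed dormancy and stomatal closure. The receptor genes described here are PYR1, PYL1, PYL2, PYL4, PYL5, PYL6, PYL7, PYL8 and PYL9, taken from the expression table by locus. They were chosen with earlier results of these data known. All 9 were found among the 27655 genes of the table, and all 9 passed the filter of the test. The 5 family genes left out fell under that filter, so its passing by all 9 is no finding about them. RNA was sequenced from Arabidopsis thaliana seedlings 10 days old, kept at 22 °C under a cycle of 16 h light and 8 h dark. The 9 libraries formed 3 groups of 3, namely wild type Col, a line labelled h3.3ko;HTR5 G34R and another labelled h3.3ko;HTR5 G34W, for which G34R and G34W stand below. By the usual notation, each line carries a substituted glycine of HTR5, a gene for the histone variant H3.3, in a background marked h3.3ko. No h3.3ko line with intact HTR5 was analysed here, so in both comparisons with wild type the background and the substitution cannot be told apart. The labels do not say how the lines were made, or whether replicates were separate plantings.

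Without the hormone, clade A protein phosphatases of type 2C (PP2Cs) hold SnRK2 kinases inactive. A receptor that has bound abscisic acid closes over it and blocks a PP2C, and the freed SnRK2 kinases phosphorylate transcription factors of the ABF and ABI5 type and ion channels of guard cells. PYR1, PYL1 and PYL2 form dimers that come apart on binding the hormone, whereas most of the other receptors are monomers.

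The unit throughout is TPM, each gene's length-scaled share of a library, as deposited, from 12889624 to 14730745 recovered reads in a library. The H3.3 genes differed between the groups: HTR8 ranged over 207 to 214 TPM in Col, 3.92 to 5.86 TPM in G34R and 4.65 to 6.69 TPM in G34W. In the same order HTR4 ranged over 408 to 438, 132 to 137 and 152 to 165 TPM, and HTR5 over 331 to 335, 353 to 360 and 368 to 390 TPM. G34R was the least uniform group, its replicates 1 and 3 scoring -17.05 and 18.24 on a component with 4.34% of the variance, where all remaining libraries scored -4.07 to 3.63. Markers of root, leaf mesophyll, guard cell and vasculature were detected, none at 0 in all libraries. By the test described below, 34.6% of all genes tested were called as higher and 16.5% as lower in G34R, and 44.8% and 13.1% in G34W. Here and below, shares and medians of all genes are over the 18544 genes tested. Between the lines 21.5% were called as higher in G34W and 11.8% as lower. Of 12 root markers 10 rose and 1 fell in G34R, and 10 rose and 0 fell in G34W. Their summed level was 117 to 127 TPM in Col, 309 to 332 TPM in G34R and 227 to 236 TPM in G34W. Of 5 guard cell markers 4 fell in either line, with sums of 248 to 255, 197 to 216 and 193 to 214 TPM, and 5 of 5 had no call between the lines. All 3 vasculature markers were lower in G34W than in G34R, with sums of 169 to 175 TPM in Col, 188 to 192 TPM in G34R and 145 to 150 TPM in G34W. The part of these shifts in the receptor results was not tested, and in bulk RNA fewer cells of a type and less RNA per cell cannot be told apart.

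RefSeq's TAIR10.1 assembly places PYR1 (AT4G17870) at chr4:9928587-9929875 on the plus strand, PYL1 (AT5G46790) at chr5:18983540-18984923 on the minus strand and PYL2 (AT2G26040) at chr2:11094258-11095542 on the minus strand. The second group has PYL4 (AT2G38310) at chr2:16049918-16051356 on the plus strand, PYL5 (AT5G05440) at chr5:1608988-1610527 on the plus strand and PYL6 (AT2G40330) at chr2:16844588-16846194 on the minus strand. The third has PYL7 (AT4G01026) at chr4:446978-448511 on the plus strand, PYL8 (AT5G53160) at chr5:21560601-21562709 on the plus strand and PYL9 (AT1G01360) at chr1:141870-143261 on the plus strand. PYL7, PYL8 and PYL9 have 3 exons each, and the rest have no intron in at least 1 annotated transcript. Promoter sequence is shown for PYL4 and PYL5, related receptor genes that rose in G34W with adjusted p values among the smallest of the receptors, so that the letters before them can be compared. Each is the 250 bases before the annotated start, 5′ to 3′ on the strand of the gene. Both were searched on either strand for ACGTG, the core of the abscisic acid response element (ABRE), to be marked in capitals, and for CCGAC, the core of the drought-responsive element, which can share letters with it.
PYL4, chr2:16049668-16049917, plus strand: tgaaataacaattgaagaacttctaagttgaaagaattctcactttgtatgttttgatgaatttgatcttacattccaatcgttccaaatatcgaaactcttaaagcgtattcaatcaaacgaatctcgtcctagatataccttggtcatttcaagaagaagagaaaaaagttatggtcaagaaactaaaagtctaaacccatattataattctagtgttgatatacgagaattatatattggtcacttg
PYL5, chr5:1608738-1608987, plus strand: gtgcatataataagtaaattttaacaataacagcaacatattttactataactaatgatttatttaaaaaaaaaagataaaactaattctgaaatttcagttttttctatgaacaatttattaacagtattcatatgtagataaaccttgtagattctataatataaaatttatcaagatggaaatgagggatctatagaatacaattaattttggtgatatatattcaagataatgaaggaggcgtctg
ACGTG was in 0 of these 2 windows, so no letter is in capitals, against 23.7% of 18463 promoters of protein-coding genes that were tested. CCGAC was in 0 of the 2 and in 13% of those of tested genes. No match says only that these letters are not in the window.

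In Col seedlings the receptor genes covered a wide range of levels, with PYL4 and PYR1 at the top and PYL6 at the bottom. Mean levels were 73.3 ± 2.68 TPM for PYL4, 73.3 ± 3.12 TPM for PYR1, 53.2 ± 1.22 TPM for PYL8, 37.6 ± 0.822 TPM for PYL5 and 32.0 ± 1.96 TPM for PYL1 (SD, n = 3 libraries here and throughout). Below them came PYL9 with 24.1 ± 1.87 TPM, PYL7 with 10.2 ± 2.07 TPM, PYL2 with 5.19 ± 1.08 TPM and PYL6 with 2.09 ± 0.510 TPM. Of neighbours in this order, PYL4 and PYR1 overlapped and the other pairs did not. The deposited values match reads divided by the whole span of a gene, introns included, which is 1.24, 1.15 and 1.18 times the exon length for PYL7, PYL8 and PYL9. Levels per exon length kept the order in Col, with 56.5 ± 2.41 TPM for PYR1 and 47.3 ± 1.08 TPM for PYL8, and there PYL1 (24.7 ± 1.51 TPM) and PYL9 (22.0 ± 1.71 TPM) overlapped as well. In G34R the order was that of Col except that PYR1 stood clear above PYL4, and PYL5 and PYL1 overlapped. In G34W, on both scales, PYL5 had passed PYL8, and PYL6 stood above PYL2 with overlapping libraries.

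**Figure D1:**
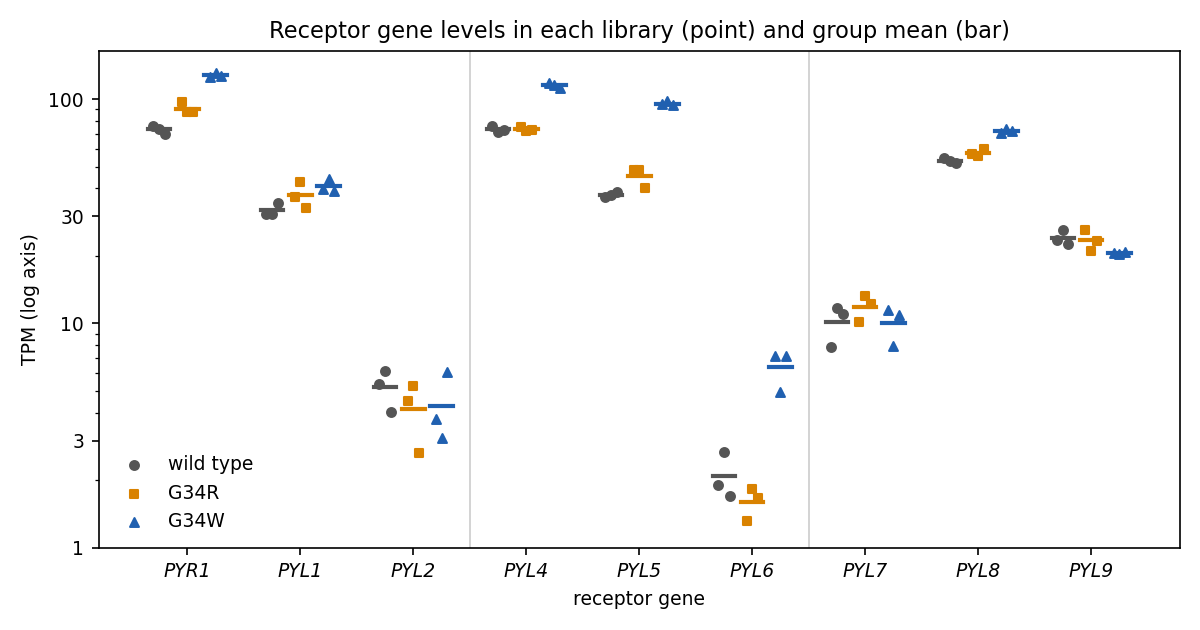
TPM of the 9 receptor genes in each of 9 libraries on a log axis, with the 3 groups side by side and bars for group means. PYR1, PYL4, PYL5, PYL6 and PYL8 lie higher in all 3 G34W libraries than in every library of the other groups.

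The remaining 5 genes of the family had a mean under 1 TPM over the 9 libraries and were not tested. PYL3 had 0 to 9 reads in a library, PYL10 had 0 to 3, PYL11 had 0 to 4 and PYL13 had 0 or 1. PYL12 had 0 reads in all 9 libraries, and a count of 0 allows up to 3 reads in a library, for counting error only. No stretch of 51 bases in the 9 receptor genes occurs elsewhere in the TAIR10.1 genome. PYL7 is overlapped on the opposite strand by 571 bases of the gene AT4G01030 and by 269 bases of a non-coding gene, and without a stated strand setting their reads cannot be told apart. AT4G01030 itself had means of 3.60 TPM in Col, 2.74 TPM in G34R and 3.29 TPM in G34W.

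Most receptor genes were higher in G34W than in wild type. By limma on log2(TPM + 1), with Benjamini-Hochberg adjustment at 0.05 over 18544 genes, 6 of the 9 rose, 1 fell and 2 did not pass. Calls were common in this comparison, covering 57.8% of all genes tested, 44.8% as higher and 13.1% as lower. The 2 groups did not overlap for 6 receptors that lay higher in G34W and 1 that lay lower. Over all genes this held for 65.2% (50.0% higher and 15.2% lower). The median log2 fold change was 0.43 over the receptors and 0.21 over all genes. Scaling the libraries by median ratios shifted the median of all genes by 0.20 in G34W and 0.12 in G34R, to 0.01 and -0.01, so values with that scaling are given beside the deposited ones. With it 4500 genes were higher and 4509 lower in G34W, against 8300 and 2427 as deposited, and 5 receptors were higher and 1 lower.

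Among the dimeric receptors, PYR1 and PYL1 rose in both lines, PYL1 not with median-ratio scaling, and PYL2 was called in neither. The Col libraries held PYR1, the receptor found through the synthetic agonist pyrabactin, at 76.1, 73.8 and 69.9 TPM, those of G34R at 97.1, 87.7 and 87.8 TPM and those of G34W at 125, 131 and 127 TPM. The 3 groups did not overlap and stood in the order Col, G34R, G34W. PYR1 rose by 0.79 ± 0.05 (log2 fold change ± SE) in G34W (adjusted p = 1.25e-09) and by 0.31 ± 0.05 in G34R (adjusted p = 7.87e-05). Median-ratio scaling gave 0.58 and 0.18, still called (adjusted p = 7.66e-07 and 0.0169). PYL1, a close relative of PYR1, stood in the Col libraries at 30.9, 30.9 and 34.3 TPM, in the G34R ones at 36.8, 42.8 and 32.9 TPM and in the G34W ones at 39.8, 44.1 and 38.8 TPM. G34W lay above Col in every library, while G34R overlapped both. PYL1 rose by 0.34 ± 0.08 in G34W (adjusted p = 0.00247), a call lost with median-ratio scaling (0.13, adjusted p = 0.255) and quantile normalization (adjusted p = 0.102). In G34R PYL1 rose by 0.22 ± 0.08 (adjusted p = 0.0427), a call lost in 10 of 18 alternatives: it was 0.09 with median-ratio scaling and 0.12 without G34R replicate 2 (adjusted p = 0.426 and 0.257). Leaving out Col replicate 1 or 2, G34R replicate 1 or G34W replicate 1 ended it too (adjusted p = 0.119, 0.118, 0.0685 and 0.0505). PYL2 rested on 23 to 51 reads in a library, at 5.37, 6.17 and 4.04 TPM in Col, 4.49, 5.28 and 2.66 TPM for G34R and 3.74, 3.10 and 6.07 TPM for G34W. The groups of PYL2 overlapped, with log2 fold changes of -0.25 ± 0.22 in G34W (adjusted p = 0.34, 95% interval -0.71 to 0.21) and -0.29 ± 0.22 in G34R (adjusted p = 0.282, 95% interval -0.75 to 0.17).

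PYL4, PYL5 and PYL6 all rose in G34W, and PYL5 alone of these was called in G34R. PYL4 was found in Col at 76.3, 71.1 and 72.5 TPM, in the G34R libraries at 75.1, 72.2 and 73.2 TPM and in the G34W libraries at 118, 116 and 112 TPM. Col and G34R overlapped, and G34W lay apart from both. PYL4 rose by 0.64 ± 0.05 in G34W (adjusted p = 4.71e-09) and had a change of 0.00 ± 0.05 in G34R (adjusted p = 0.949, 95% interval -0.09 to 0.10). Median-ratio scaling gave 0.43 in G34W and -0.12 in G34R, where PYL4 was then called as lower (adjusted p = 0.0406). For PYL5 the Col libraries showed 36.8, 37.4 and 38.4 TPM, the G34R libraries 48.2, 48.5 and 40.0 TPM and the G34W libraries 94.7, 97.9 and 94.1 TPM. No library of one group reached into another, and G34R stood much nearer to Col than to G34W. PYL5 rose by 1.32 ± 0.07 in G34W (adjusted p = 6.3e-11), or 1.11 with median-ratio scaling. In G34R PYL5 rose by 0.27 ± 0.07 (adjusted p = 0.00268), which was not called with median-ratio scaling (0.14, adjusted p = 0.124) or quantile normalization (adjusted p = 0.0518). PYL6 was the weakest in Col, with 19, 26 and 18 reads (1.90, 2.67 and 1.71 TPM), beside 15, 20 and 18 reads in G34R (1.31, 1.84 and 1.66 TPM) and 77, 50 and 75 reads in G34W (7.19, 4.96 and 7.13 TPM). Even the lowest G34W library of PYL6 exceeded the highest of the other groups, which overlapped each other. PYL6 rose by 1.26 ± 0.17 in G34W (adjusted p = 1.17e-05), or 1.09 with median-ratio scaling and 1.58 with a pseudocount of 0.1, under which PYL5 rose by 1.35. It had a change of -0.24 ± 0.17 in G34R (adjusted p = 0.262), called as lower with quantile normalization alone (-0.44, adjusted p = 0.0447).

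In the group of PYL7, PYL8 and PYL9 the members went different ways in G34W. PYL8, a receptor with a known role in root growth, measured 54.4, 53.1 and 52.0 TPM in Col, 56.7, 56.0 and 60.0 TPM in the G34R libraries and 70.8, 73.7 and 72.0 TPM in the G34W libraries. The 3 groups did not overlap, and G34R stood close to Col. PYL8 rose by 0.43 ± 0.05 in G34W (adjusted p = 1.46e-06), or 0.22 with median-ratio scaling (adjusted p = 0.00115). In G34R its change was 0.11 ± 0.05 (adjusted p = 0.0705), or -0.02 with that scaling. PYL9 measured 23.6, 26.2 and 22.6 TPM in Col, 26.1, 21.1 and 23.4 TPM in the G34R libraries and 20.7, 20.5 and 20.8 TPM in the G34W libraries. Its G34W libraries lay below all the others, and Col and G34R overlapped. PYL9 fell by 0.21 ± 0.08 in G34W (adjusted p = 0.0369), and its change was -0.43 with median-ratio scaling (adjusted p = 0.000772). That call was lost in 8 of 18 alternatives, among them leaving out Col replicate 1 or 2 (adjusted p = 0.0591 and 0.165) or G34W replicate 1, 2 or 3 (adjusted p = 0.0732, 0.0814 and 0.0714). In G34R PYL9 had a change of -0.04 ± 0.08 (adjusted p = 0.721). PYL7 ranged from 7.85 to 11.7 TPM in Col, from 10.2 to 13.3 TPM in G34R and from 7.90 to 11.4 TPM in G34W, all overlapping, with changes of -0.01 ± 0.15 (adjusted p = 0.954) and 0.21 ± 0.15 (adjusted p = 0.254) in G34W and G34R.

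**Figure D2:**
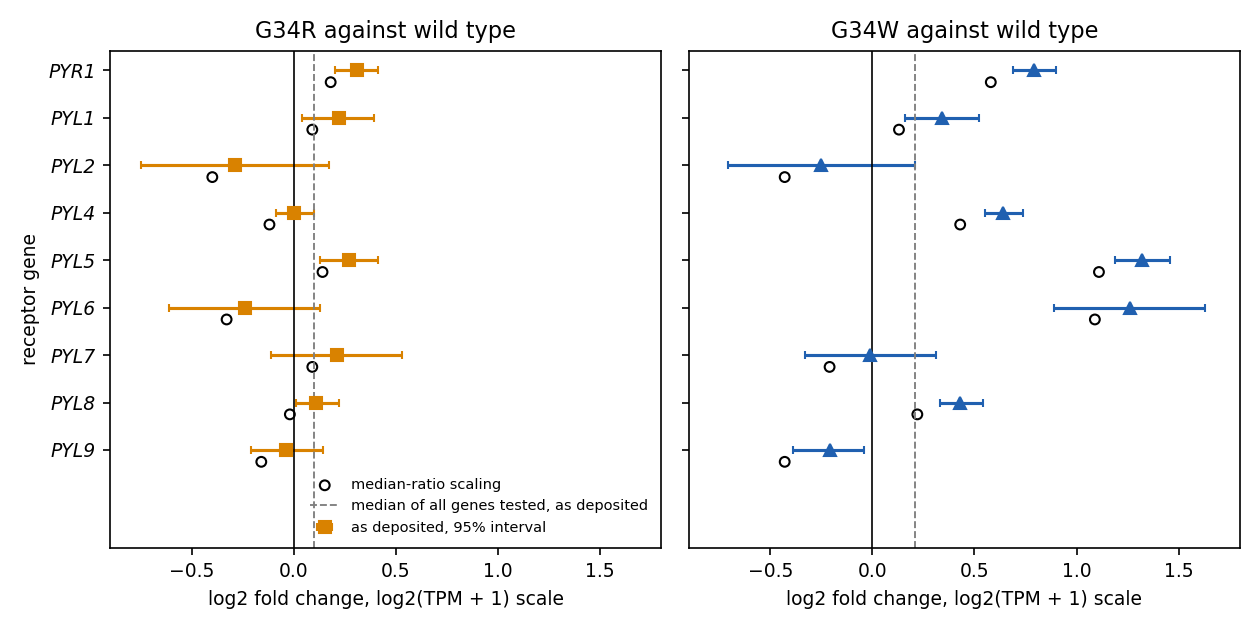
Log2 fold change of each receptor gene against wild type in G34R and G34W, with 95% intervals, beside the values with median-ratio scaling and the median of all genes tested. In G34W the intervals of PYR1, PYL4, PYL5, PYL6 and PYL8 lie above the median of all genes, 0.21, and in G34R all 9 values lie between -0.29 and 0.31.

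In G34R the receptors called as higher were PYR1, PYL1 and PYL5, 3 of 9, with 0 called as lower. Of all genes tested 51.1% were called, 34.6% as higher and 16.5% as lower. The share of receptors called as higher was near that of all genes, and no test compared these shares. The median was 0.11 over the receptors and 0.10 over all genes. Groups did not overlap for 3 receptors, all higher (PYR1, PYL5 and PYL8). Over all genes this held for 56.8% (37.9% higher and 18.9% lower). With median-ratio scaling 1 receptor, PYR1, was higher and 1, PYL4, lower, and over all genes 4665 were higher and 4911 lower, against 6419 and 3060 as deposited.

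Set directly against G34R, G34W had 5 of the 9 receptor genes higher and 0 lower. Of all genes 33.3% were called here, 21.5% as higher and 11.8% as lower. PYL6 was higher by 1.50 ± 0.17 (adjusted p = 5.73e-06) and PYL5 by 1.06 ± 0.07 (adjusted p = 4.6e-09). PYL4 was higher by 0.64 ± 0.05 (adjusted p = 2.17e-08), PYR1 by 0.49 ± 0.05 (adjusted p = 1.53e-06) and PYL8 by 0.32 ± 0.05 (adjusted p = 9.86e-05). These 5 calls held in each alternative in which the gene was tested, and the lowest value was 0.23, for PYL8. PYL1 differed by 0.13 ± 0.08 (adjusted p = 0.268, 95% interval -0.05 to 0.31), PYL2 by 0.04 ± 0.22 (95% interval -0.42 to 0.50) and PYL7 by -0.22 ± 0.15 (95% interval -0.54 to 0.09). PYL9 differed by -0.17 ± 0.08 (adjusted p = 0.118), and was called as lower with median-ratio scaling (-0.26, adjusted p = 0.0305), with quantile normalization (adjusted p = 0.0402) and without G34R replicate 2 (adjusted p = 0.0474). The lines did not overlap for 5 receptors higher and 1 lower in G34W. Over all genes this held for 45.3% (29.3% higher and 16.0% lower). Over all genes median-ratio scaling gave 2492 higher and 3250 lower, against 3982 and 2192 as deposited. Both comparisons with wild type share the Col libraries, so their values stand side by side only.

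Summed over the 9 genes, receptor transcripts came to 313, 313 and 307 TPM in the Col libraries, 356, 349 and 334 TPM in G34R and 491, 499 and 489 TPM in G34W. The G34W sums lay well apart. As deposited, the G34R sums lay a little above those of Col, a gap that depends on the scaling. PYL4, PYL5 and PYL6 made up 36.3% ± 0.698 of the sum in Col, 34.9% ± 0.378 in G34R and 44.0% ± 0.555 in G34W. PYL7, PYL8 and PYL9 made up 28.1% ± 0.842, 26.9% ± 1.51 and 20.9% ± 0.388, so that their share was lowest in G34W. The mean sum relative to Col was 1.92 in G34W and 1.07 in G34R for PYL4, PYL5 and PYL6, 1.57 and 1.2 for PYR1, PYL1 and PYL2, and 1.18 and 1.06 for PYL7, PYL8 and PYL9. With median-ratio scaling the G34R ratios of the PYL4 and PYL7 groups turned to 0.977 and 0.97, and that of the PYR1 group was 1.1. No test was made on sums.

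The PP2Cs that receptors block summed to 243 ± 4.66 TPM over 9 genes in Col, 255 ± 15.4 TPM in G34R and 185 ± 0.993 TPM in G34W. The receptor sum was 1.28 ± 0.0322 times the PP2C sum in Col, 1.36 ± 0.126 times in G34R and 2.67 ± 0.0315 times in G34W. Per exon length these ratios were 1.15 ± 0.0312, 1.22 ± 0.112 and 2.36 ± 0.0251, and G34W stood apart on both scales. Of 6 PP2C genes tested 4 fell and 0 rose in G34W, beside 13.1% and 44.8% of all genes. Their median was -0.27 there, beside 0.21 over all genes. PP2CA went from 80.7 ± 3.43 TPM in Col to 47.9 ± 5.12 TPM in G34W, falling by 0.74 ± 0.07 (adjusted p = 8.92e-08). HAB2 fell by 0.45 ± 0.08 and ABI2 by 0.33 ± 0.10 there. In G34R 3 PP2C genes rose and 0 fell, beside 34.6% and 16.5% of all genes, but 1 rose and 2 fell with median-ratio scaling. HAI1 rose by 0.81 ± 0.12 in G34R (adjusted p = 4.32e-05), from 4.02 ± 0.418 TPM to 7.78 ± 0.534 TPM. ABI2 rose by 0.32 ± 0.10 in G34R (adjusted p = 0.00977), a call lost with median-ratio scaling (adjusted p = 0.0764) and without G34R replicate 2 (adjusted p = 0.0722).

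**Figure D3:**
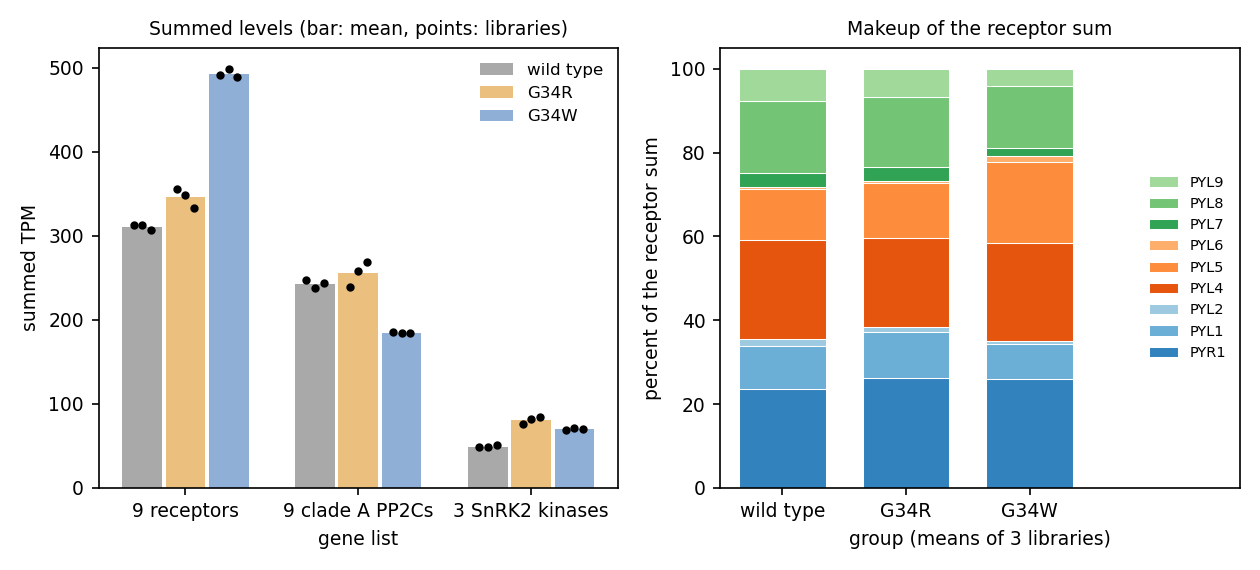
Summed TPM of the 9 receptor genes, of the 9 clade A PP2C genes and of the 3 SnRK2 genes in each group, with points for libraries, and the share of each receptor gene in the receptor sum. PYL4, PYL5 and PYL6 together take 44.0% of the sum in G34W and 36.3% in wild type.

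Of the 3 SnRK2 kinase genes, SNRK2.2 and SNRK2.3 rose in both lines and SNRK2.6 in G34R. Over all genes 34.6% rose in G34R and 44.8% in G34W. SNRK2.2 went from 24.1 ± 1.48 TPM in Col to 38.4 ± 3.10 TPM in G34R and 35.1 ± 0.835 TPM in G34W, and SNRK2.3 from 10.9 ± 0.640 TPM to 21.4 ± 1.42 TPM and 19.8 ± 1.56 TPM. SNRK2.2 rose by 0.65 ± 0.07 in G34R and 0.53 ± 0.07 in G34W, and SNRK2.3 by 0.91 ± 0.09 and 0.80 ± 0.09. SNRK2.6, the kinase of stomatal closure, rose by 0.52 ± 0.08 in G34R (adjusted p = 2.52e-05) and had a change of 0.11 ± 0.08 in G34W (adjusted p = 0.238).

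Of 5 transcription factor genes tested, 4 fell and 1 rose in G34W, beside 13.1% and 44.8% of all genes. In G34R 2 rose and 0 fell (2 and 1 with median-ratio scaling), beside 34.6% and 16.5% of all genes as deposited. ABF3, which binds the ABRE, stood at 114 ± 3.40 TPM in Col, 142 ± 9.76 TPM in G34R and 86.5 ± 1.94 TPM in G34W. In G34R ABF3 thus rose by 0.31 ± 0.05 (adjusted p = 5.32e-05), whereas in G34W it fell by 0.39 ± 0.05 (adjusted p = 4.26e-06). ABF2 fell by 0.29 ± 0.07 in G34W. ABI5, which acts in seeds and young seedlings, went from 1.27 ± 0.0796 TPM to 0.552 ± 0.158 TPM in G34W (adjusted p = 0.0146, and 0.0545 without G34W replicate 1). ABF1 rose by 0.59 ± 0.15 in G34W and 0.56 ± 0.15 in G34R, calls that were lost with quantile normalization (adjusted p = 0.0663 and 0.054).

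Genes for the supply of the hormone moved in both directions. Of 6 synthesis genes tested 2 rose and 2 fell in G34W, beside 44.8% and 13.1% of all genes. In G34R 2 rose and 1 fell, beside 34.6% and 16.5%. NCED3, whose product cleaves carotenoids under drought, stood at 8.67 ± 0.810 TPM in Col, 8.07 ± 1.15 TPM in G34R and 3.91 ± 0.0464 TPM in G34W. NCED3 fell by 0.97 ± 0.12 in G34W (adjusted p = 4.14e-06). ABA1, for zeaxanthin epoxidase, fell by 0.39 ± 0.04 in G34W and 0.23 ± 0.04 in G34R, while ABA4, for neoxanthin synthesis, rose by 0.75 ± 0.07 and 0.94 ± 0.07. ABA2 rose by 0.26 ± 0.10 in G34W and 0.33 ± 0.10 in G34R, calls lost with median-ratio scaling (adjusted p = 0.707 and 0.0898) and without Col replicate 1 (adjusted p = 0.185 and 0.0675). In G34W the ABA2 call was also lost without G34W replicate 1 or 3 (adjusted p = 0.0568 and 0.218).

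Of 4 genes tested for breakdown, conjugation or release of the hormone, 2 fell and 1 rose in either line. Over all genes 16.5% fell and 34.6% rose in G34R, and 13.1% fell and 44.8% rose in G34W. CYP707A3, for a hydroxylase that degrades the hormone, went from 6.64 ± 0.393 TPM in Col to 2.72 ± 0.562 TPM in G34R and 3.65 ± 0.131 TPM in G34W, falling in both. CYP707A1, for a related hydroxylase, rose by 0.74 ± 0.14 in G34R (adjusted p = 0.000401) and had a change of -0.06 ± 0.14 in G34W (adjusted p = 0.756). BGLU18, whose product frees the hormone from its glucose ester, fell by 0.43 ± 0.06 in G34R and 0.42 ± 0.06 in G34W. The glucosyltransferase gene UGT71C5 rose by 0.26 ± 0.07 in G34W, a call lost with median-ratio scaling (adjusted p = 0.579). Among 3 transporters tested, the exporter gene DTX50 fell by 1.21 ± 0.19 in G34R and 1.02 ± 0.19 in G34W. The exporter gene ABCG25 rose by 0.41 ± 0.10 in G34R. The importer gene NPF4.6 fell by 0.26 ± 0.08 in G34R (adjusted p = 0.0078, and 0.055 without G34R replicate 2) and rose by 0.25 ± 0.08 in G34W, where median-ratio scaling ended the call (adjusted p = 0.711).

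Of 6 genes tested for recruitment and turnover of receptors, 4 rose in G34R and 4 in G34W, beside 34.6% and 44.8% of all genes. With median-ratio scaling 1 rose and 1 fell in G34W. AT5G37740, annotated by RefSeq as a lipid-binding protein dependent on calcium, went from 15.0 ± 0.637 TPM in Col to 41.2 ± 1.39 TPM in G34R (adjusted p = 8.03e-11) and 30.2 ± 2.25 TPM in G34W (adjusted p = 8.88e-09). AT5G41560, annotated there as a ubiquitin ligase that complexes DET1, rose by 0.65 ± 0.10 in G34R and by 0.24 ± 0.10 in G34W (adjusted p = 0.0439), the G34W call being lost in most alternatives, among them median-ratio scaling (adjusted p = 0.753), the replicate block (adjusted p = 0.0564) and leaving out Col replicate 1 or 3 (adjusted p = 0.132 and 0.124) or G34W replicate 1, 2 or 3 (adjusted p = 0.139, 0.0815 and 0.0515). The endosomal sorting genes ELC and FYVE1 rose by 0.37 ± 0.07 and 0.29 ± 0.06 in G34R. In G34W ELC rose by 0.25 ± 0.07 and FYVE1 by 0.20 ± 0.06, calls lost with median-ratio scaling (adjusted p = 0.711 and 0.848), which turned FYVE1 to -0.02. FYVE1 also lost its G34W call without G34W replicate 1 (adjusted p = 0.0643).

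Of 14 genes known to be induced by abscisic acid, 9 rose and 3 fell in G34R, while 4 rose and 8 fell in G34W. Over all genes 34.6% rose and 16.5% fell in G34R, and 44.8% rose and 13.1% fell in G34W. The medians of the 14 genes were 0.39 and -0.42, beside 0.10 and 0.21 over all genes. Set against G34R, 12 of the 14 were lower in G34W and 0 higher, beside 11.8% and 21.5% of all genes. The median there was -0.81, beside 0.07 over all genes. P5CS1, for proline synthesis, stood at 133 ± 4.61 TPM in Col, 143 ± 5.20 TPM in G34R and 15.9 ± 0.276 TPM in G34W, where it fell by 2.98 ± 0.05 (adjusted p = 9.75e-17). RD22, a drought-induced gene, stood at 344 ± 9.80 TPM, 355 ± 3.38 TPM and 175 ± 4.6 TPM, falling by 0.97 ± 0.03 in G34W. The homeobox gene HB12 fell in both lines, by 0.96 ± 0.07 in G34R and 1.30 ± 0.07 in G34W. The linker histone gene HIS1-3 rose in both, from 53.0 ± 5.06 TPM in Col to 353 ± 5.77 TPM in G34R and 328 ± 12.4 TPM in G34W.

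**Figure D4:**
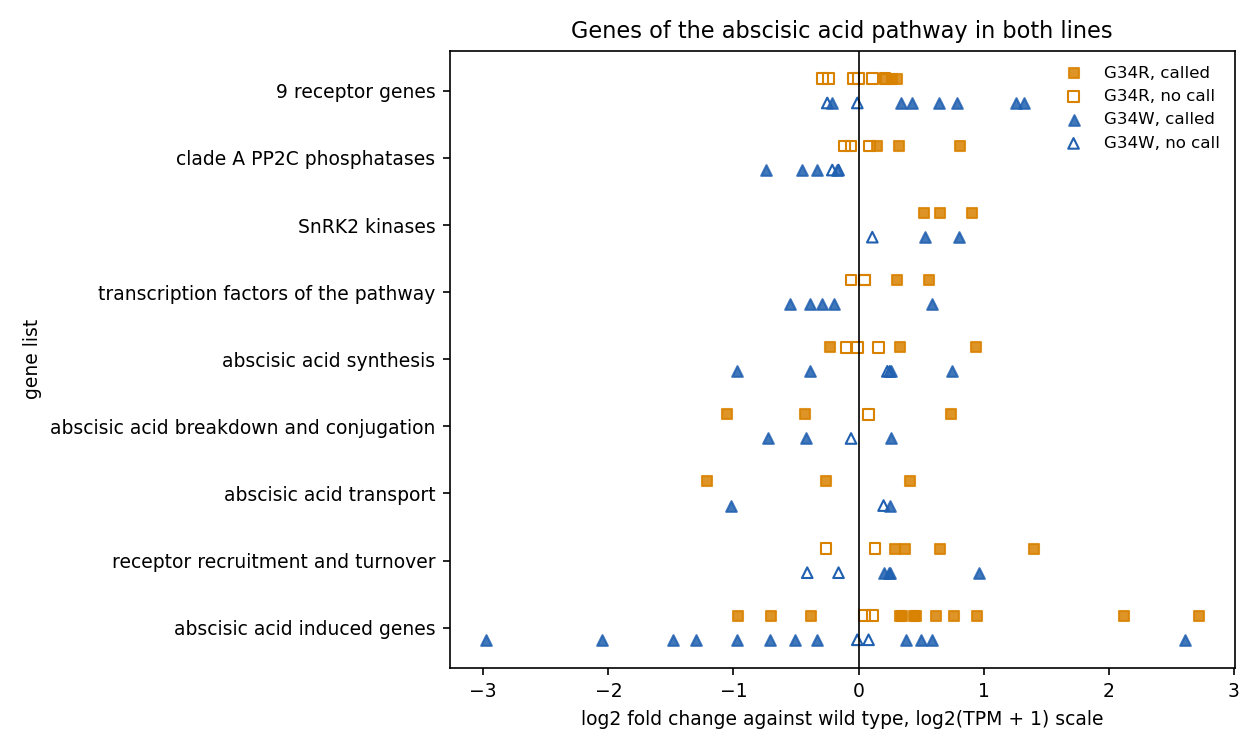
Log2 fold change against wild type of the tested genes of each pathway list in both lines, with filled symbols where the adjusted p is under 0.05. In G34W the receptor values reach 1.32, for PYL5, and the values of all 6 tested PP2C genes lie below 0, down to -0.74 for PP2CA.

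For the 3 receptor genes with the smallest adjusted p, the genes with the most similar profile were sought among 6728 genes with a symbol and a mean of at least 5 TPM, by Pearson correlation of log2(TPM + 1) over 9 libraries. For PYL4 they were the sugar transporter gene PMT6 (0.993), THIC, for thiamine synthesis (0.992), and MLP423 (0.992). PMT6 had means of 7.45 TPM in Col, 7.09 TPM in G34R and 25.0 TPM in G34W. For PYL5 they were JP630 (0.992), the ribosomal protein gene RPS15 (0.989) and the xylosidase gene XYL4 (0.989), and for PYR1 they were BBC1 (0.990), the tubulin gene TUA5 (0.990), which has close copies, and RPS15 (0.989). These correlations describe 9 points that fall into 3 groups and share libraries and depth.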

How the data were processed

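TPM for 27655 genes in 9 RNA-seq libraries were deposited by the authors, in columns whose names speak of gene counts but which each sum to 1000000. The submitters' processing notes list fastp 0.20.1, HISAT2 2.1.10, DESeq2 1.26.0 and TAIR10, without roles. The sources used here name no counter, strand setting or read length. TPM multiplied by the RefSeq TAIR10.1 gene span gave whole reads, within a relative tolerance of 1e-06, for 23088 of 23235 genes above 0 (99.4%). Levels per exon length came from those reads. Since TPM sum to a constant, abundant genes move all others, and the top 100 genes took 33.3% to 38.7% of a library.

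Genes with a mean of 1 TPM or more (18544) entered limma 3.58.1 (R 4.3.3) on log2(TPM + 1), which understates changes of low genes, with 1 model over the 3 groups and an intensity trend. Tests were two-sided, with Benjamini-Hochberg adjustment at 0.05 over all these genes, and intervals are 95%. The scripts were tested on simulated data. Chi-square per gene between replicates was 1.75 to 5.47, above counting noise, so none was taken as a repeat. P-values measure the spread between these libraries, which may be technical. Alternatives changed the pseudocount, filter, scaling, trend, groups fitted, replicate block or libraries, or used limma-voom on recovered reads. The members and lists were chosen with earlier results of these data known. From each list up to 4 called genes with the smallest adjusted p against wild type are named. The table holds no coordinates, so those given are of the reference's own genes.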

Additional observations from a re-analysis of the deposited data

Results flagged for a closer look

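The change against wild type differed between the 2 lines for 5 receptor genes higher in G34W, by limma's direct test of G34W against G34R, which called 33.3% of all genes tested, 21.5% as higher. On the log2 scale G34W exceeded G34R by 0.49 for PYR1, 0.64 for PYL4, 1.06 for PYL5, 1.50 for PYL6 and 0.32 for PYL8. For each of these the 3 G34W libraries lay above the 3 G34R libraries. Groups of 3 are too small for a test of single libraries that stand apart.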

How the results depend on the processing

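Over 18 alternatives the number of receptor genes called was 2 to 3 in G34R, 6 to 7 in G34W and 4 to 6 between the lines, and that of all genes 7923 to 9997, 8893 to 11008 and 4893 to 6665, each within 1.5 times the reported count. Median-ratio scaling, which recentres all genes by construction, moved the summed levels relative to wild type to 1.34 in G34W and 1.1 in G34R for PYR1, PYL1 and PYL2, to 1.65 and 0.977 for PYL4, PYL5 and PYL6, and to 1.01 and 0.97 for PYL7, PYL8 and PYL9. For the last of these in G34W the ratio was 1.16 per exon length and 1.16 to 1.2 with each library left out in turn. PYL4 in G34R turned to -0.12 and FYVE1 in G34W to -0.02 with median-ratio scaling. Replicate numbers did not pair the libraries (correlations of deviations from -0.02 to 0.04). A replicate block gave 9569, 10747 and 6238 calls over all genes and 3, 7 and 5 over the receptors. PYL2 and PYL6 rest on few reads, 15 to 77 in a library, and fell under the filter of 5 TPM, so that alternative has no value for them.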

Other observations

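Among the genes known to be induced by abscisic acid, a few outside the naming rule were chosen after their values were seen. KIN1, a cold- and hormone-induced gene, stood at 2.85 ± 0.624 TPM in Col, 15.8 ± 2.61 TPM in G34R and 3.07 ± 1.70 TPM in G34W, so that it rose in G34R (adjusted p = 1.76e-06) and had a change of -0.01 ± 0.24 in G34W (adjusted p = 0.979). COR15A, for a chloroplast protein of freezing tolerance, stood at 10.2 ± 0.854 TPM, 7.67 ± 1.48 TPM and 1.71 ± 0.134 TPM. COR15A fell by 0.38 ± 0.14 in G34R (adjusted p = 0.0279) and by 2.05 ± 0.14 in G34W (adjusted p = 2.52e-09). The dehydrin gene RAB18 rose by 0.44 ± 0.05 in G34R and fell by 0.71 ± 0.05 in G34W. Of the 14 genes in this list 8 fell and 4 rose in G34W. The 4 that rose were HIS1-3, RD26 (0.59 ± 0.10), AFP1 (0.50 ± 0.10) and LTI30 (0.38 ± 0.06). CYP707A4, for a hydroxylase of the hormone, had a mean under 1 TPM over the 9 libraries and was not tested, with 1.72 to 1.76 TPM in Col, 0.156 to 0.249 TPM in G34R and 0.113 to 0.432 TPM in G34W.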
